A study of Mus musculus with 2 samples.

Results

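A set of 10 cytokine genes of T cells and innate lymphocytes was read across the cell classes of 2 libraries labelled as optic nerve of mice with an optic glioma: Ifng, Tnf, Il2, Il4, Il5, Il13, Il10, Il17a, Areg and Il6. They were chosen by symbol from the gene list of the deposited count matrices, and each symbol matched 1 of the 32285 genes, so 10 of 32285 genes are described. The nerves came from Nf1-OPG mice of the C57BL/6 strain at 12 weeks of age, and each cell suspension pooled the nerves of 10 mice. These mice carry 1 floxed and 1 mutant Nf1 allele with Cre under the GFAP promoter, so that the floxed allele is lost in glial cells and their progenitors while other cells, lymphocytes included, keep it. The series holds 2 libraries made with droplet capture and 5′ sequencing, named C-ON and FMC_new, and both carry the same genotype label, so they were read as replicates 1 and 2 of 1 condition. The labels call the first a control and the other "FMC new" without saying what these words stand for, and no treatment is named. The extraction notes of both also describe sorted live cells of the meningeal dura, collected apart from the nerves, and whether either library holds such cells is not said. There is no second condition, so no difference between libraries or classes was tested and no p-value is given.

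Cytokines are short-lived secreted signals, and a lymphocyte usually transcribes them in bursts after it is stimulated. Helper T cells and their innate counterparts are sorted by the set they make: interferon-gamma marks type 1 responses, interleukins 4, 5 and 13 mark type 2 responses, and interleukin 17A marks type 17 responses. Regulatory T cells are known for interleukin 10 and for amphiregulin, a growth factor that binds the epidermal growth factor receptor, and in the brain and its coverings group 2 innate lymphoid cells (ILC2) sit mainly in the meninges, where interleukin 33 stimulates them.

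Of the deposited barcodes, 8834 in C-ON and 16818 in FMC_new were kept, with medians of 6810.5 and 4676 unique molecular identifiers (UMIs, each standing for 1 captured RNA molecule) per cell. The libraries share 188 kept barcode sequences. They stand apart in makeup: oligodendrocyte-like cells number 5315 in C-ON and 2065 in FMC_new, and pituitary endocrine-like cells 19 and 1207. The part of this difference in the levels below was not tested. Clusters were named from marker lists, and a class is called X-like because it was rebuilt here from those markers. Of the 25652 kept cells, 4371 stayed unnamed (17.0%). The classes that carry these cytokines were CD8 T cell-like (454 cells in C-ON and 1553 in FMC_new), CD4 T cell-like (229 and 974), regulatory T cell-like (134 and 633), gamma-delta T cell-like (27 and 33), NK cell-like (100 and 277), ILC2-like (20 and 68), mast cell-like (3 and 4), cycling (46 and 314), microglia-like (158 and 910), border macrophage-like (113 and 236), macrophages high in MHC class II genes (231 and 768), and conventional dendritic cells of type 2, called cDC2-like (174 and 795). The cytokines were left out of the variable features that shaped the clusters. Clusters and levels still come from the same cells, so the level of a cytokine in a class is a description. These are shares of captured cells and were not read as the makeup of the nerve.

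Defining markers were then read in the named classes. As clusters were named from marker lists, this is no independent check. Il1rl1, the interleukin 33 receptor, was found in 13 of 20 ILC2-like cells in C-ON (65%) and 62 of 68 in FMC_new (91.2%), and Cd3e, a T cell receptor subunit, in 5.7% of all 88. Cd8a was found in 85.7% of CD8 T cell-like cells, Cd4 in 45.8% and Cd40lg in 44.1% of CD4 T cell-like cells, and Ncr1 in 78.2% of NK cell-like cells. Foxp3, the factor that defines regulatory T cells, was found in 45.5% of regulatory T cell-like cells in both libraries, so this class holds many cells in which it was not captured. The gamma-delta T cell-like cluster carried Trdc in 30% and Cd163l1 in 45% of its 60 cells. Levels below are the UMIs of a gene per 1000000 UMIs of the class (CPM), and each range in brackets is an exact Poisson 95% interval for counting error alone, which leaves out the spread between cells.

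Areg, Il13, Il5 and Il4, which stand for tissue repair and type 2 responses, were highest, over both libraries together, in ILC2-like cells among the 19 classes with at least 20 cells in each library. "Highest" below refers to these classes and to both libraries together unless a library is named. Interleukins 4, 5 and 13 lie within 122125 bases of chromosome 11 (GRCm38, gene models of GENCODE): Il4 spans chr11:53602982-53618669 and Il13 chr11:53631324-53634702, both on the minus strand and 12654 bases apart, and Il5 spans chr11:53720794-53725106 on the plus strand, 86091 bases beyond Il13, with 3 other genes between them, 1 of which codes for a protein. Areg lies apart, at chr5:91139599-91148432 on the plus strand. An antisense gene, Gm12214, overlaps Il5 and had 0 and 5 UMIs over all barcodes. The 250 bases before the RefSeq start sites of these 4 genes (GRCm38.p6) are printed to set the 3 type 2 cytokines and Areg side by side. Capitals mark GGAAAA or its reverse TTTTCC, the core letters of NFAT sites, AGATAA, the core of GATA sites, read on both strands, and TATAAA, the TATA box, read on the given strand alone. For Il4 the upstream one of 2 start sites is shown, and the window of the other held none of the motifs searched.
Il4: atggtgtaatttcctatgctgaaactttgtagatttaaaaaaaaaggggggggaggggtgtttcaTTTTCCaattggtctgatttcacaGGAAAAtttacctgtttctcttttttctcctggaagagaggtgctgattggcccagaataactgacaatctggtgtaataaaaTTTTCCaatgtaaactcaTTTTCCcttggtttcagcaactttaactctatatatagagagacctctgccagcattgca
Il13: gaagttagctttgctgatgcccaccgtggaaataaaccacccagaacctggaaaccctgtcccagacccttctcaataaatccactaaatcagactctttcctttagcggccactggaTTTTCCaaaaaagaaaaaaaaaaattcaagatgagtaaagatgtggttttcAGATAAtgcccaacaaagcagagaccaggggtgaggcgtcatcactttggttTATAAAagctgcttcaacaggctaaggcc
Il5: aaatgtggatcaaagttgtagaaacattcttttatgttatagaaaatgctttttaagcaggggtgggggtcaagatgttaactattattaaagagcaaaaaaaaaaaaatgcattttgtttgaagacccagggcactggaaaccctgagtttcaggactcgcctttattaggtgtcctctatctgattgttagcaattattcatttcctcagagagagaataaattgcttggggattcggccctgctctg
Areg: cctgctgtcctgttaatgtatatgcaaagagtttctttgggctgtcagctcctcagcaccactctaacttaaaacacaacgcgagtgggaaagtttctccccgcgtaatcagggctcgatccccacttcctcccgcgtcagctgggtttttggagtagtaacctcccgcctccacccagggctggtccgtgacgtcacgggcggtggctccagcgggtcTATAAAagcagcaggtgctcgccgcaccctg
They stand at chr11:53618666-53618915, chr11:53634703-53634952, chr11:53720544-53720793 and chr5:91139349-91139598, in that order. The Il4 window shown held 4 matches of the NFAT letters, which 20.4% of all 32851 promoter windows of this length hold at least once. Il13 held 1 of these, 1 AGATAA (in 9.99% of all windows) and a TATAAA at positions -29 to -24 from the start. Areg held a TATAAA at -31 to -26, and none of the motifs searched was found in the Il5 window. A TATAAA between positions -31 and -24 was found in 6 of the 9 cytokine genes with an entry (Ifng, Tnf, Il2, Il13, Il17a and Areg), against 7.59% of all windows with one anywhere. Il10 had no entry in the sequence table.

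Areg was the most widely carried of the 4. In ILC2-like cells it stood at 592 CPM in C-ON (29 UMIs in 5 of 20 cells) and 1189 CPM in FMC_new (349 UMIs in 33 of 68 cells). Regulatory T cell-like cells followed with 391 CPM (331.5 to 458) in C-ON and 452 CPM (422 to 483) in FMC_new, from 28 of 134 and 146 of 633 cells. The order of these classes was the same in both libraries, but in C-ON the interval of the ILC2-like level (396.5 to 850.4) reached into that of the regulatory T cell-like level. CD4 T cell-like cells had 123 and 48.9 CPM, CD8 T cell-like cells 19.4 and 31.4 CPM, and NK cell-like cells 37.2 and 12.1 CPM. The gamma-delta T cell-like level of 352 CPM in C-ON came from 2 cells, and none of the 33 cells in FMC_new had a UMI. As a background for free RNA, oligodendrocyte-like cells carried Areg in 0 of 5315 and 4 of 2065 cells. Because regulatory T cell-like cells are many, they held 1009 of all 2525 Areg UMIs and ILC2-like cells 378.

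In ILC2-like cells Il13 was found in 1 library alone. In FMC_new, 22 of 68 ILC2-like cells held 167 UMIs, or 569 CPM (486 to 662). In C-ON none of the 20 ILC2-like cells had a UMI, which allows, for counting error alone, a level of up to 61.3 CPM and up to 15% of cells with a UMI. That limit leaves out the spread between cells, which is wide for Il13. The ILC2-like cells of C-ON were also shallower, with a median of 2292.5 UMIs against 4169, and the clusters differ between libraries, as described further on. Il13 was therefore not detected in the ILC2-like cells of C-ON at this depth and number of cells. The parts of depth and makeup in the gap were not tested. Il13 was found in 41 cells in all, and outside ILC2-like cells a few cells held most of its UMIs. A regulatory T cell-like cell of C-ON held 65 of the 68 Il13 UMIs of that library, with 32 UMIs of Ifng, 15 of Cd3e, 6 of Foxp3 and 21 of Il2ra among its 15709 UMIs. A cell in a cluster of glioma or oligodendrocyte precursor-like cells held 15, with 2 UMIs of Il5, 6 of Il1rl1, 4 of Gata3 and 4 of Ptprc beside 9 of Pdgfra, a gene of glial precursors. No doublets were removed, and whether this droplet held 2 cells was not tested. In addition 1 mast cell-like cell held 3.

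Il5, the growth factor of eosinophils, had 25 UMIs in all, 17 of them in 9 ILC2-like cells. Its level was 20.4 CPM in C-ON (1 UMI) and 54.5 CPM (31.2 to 88.6) in FMC_new, and no other class held more than 2 UMIs. Il4, which drives helper T cells towards type 2 responses, stood in ILC2-like cells at 20.4 CPM in C-ON (1 UMI) and 68.2 CPM (41.6 to 105) in FMC_new (20 UMIs in 12 cells). In oligodendrocyte-like cells, the background for free RNA, it was found in 11 of 5315 cells of C-ON and 5 of 2065 of FMC_new, each with 1 UMI, or 0.240 and 0.295 CPM, and those 11 UMIs are the most of any class in C-ON (24 in all). The 7 mast cell-like cells had 3 UMIs in C-ON and 4 in FMC_new, and 5 of the 7 carried at least 1. That gives 447 and 302 CPM, the highest Il4 levels of any class, on very few cells. Regulatory T cell-like cells had 5.1 and 39.1 CPM (33.3 over both libraries, 14.0 without the cell with the most, and 0.988 when the class was taken by markers in each cell), and cycling cells 0 and 26.6 CPM, the latter from 71 UMIs in a single cell.

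ILC2-like cells were set against all T cell-like cells (844 in C-ON and 3193 in FMC_new) with a fold of at least 4 in each library as the call. Of 14107 genes, 1.45% were called higher in ILC2-like cells and 0.354% lower. Of the 10 cytokines, Areg, Il4 and Il5 were called higher and Ifng lower. Areg was 5.70-fold and 10.9-fold higher. Il4 was 15.2-fold and 7.62-fold higher, though the first rests on 1 UMI against 4. For Il5 a single ILC2-like UMI in C-ON stood against none in T cell-like cells, and 16 UMIs in FMC_new stood against 1. Il13 was 882-fold higher in FMC_new and was not called, since in C-ON ILC2-like cells had 0 UMIs and T cell-like cells had 65 (21.8 CPM), all in the 1 regulatory T cell-like cell described above. Ifng was nearly lacking from ILC2-like cells, with 1 UMI against 630 in T cell-like cells of C-ON and 0 against 1637 in FMC_new. With classes taken by markers in each cell this call was lost, at 1 UMI in 5 ILC2-like cells of C-ON (0.262-fold). Il10 was at 0 in ILC2-like cells of both libraries, against 25.2 and 45.3 CPM in T cell-like cells, and was not called. In C-ON the T cell-like level is under the limit at 0 UMIs given above for Il13 in the same ILC2-like cells. The ILC2-like class holds 8 Tnf UMIs, or 20.4 CPM in C-ON and 23.9 CPM in FMC_new.

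**Figure D1:**
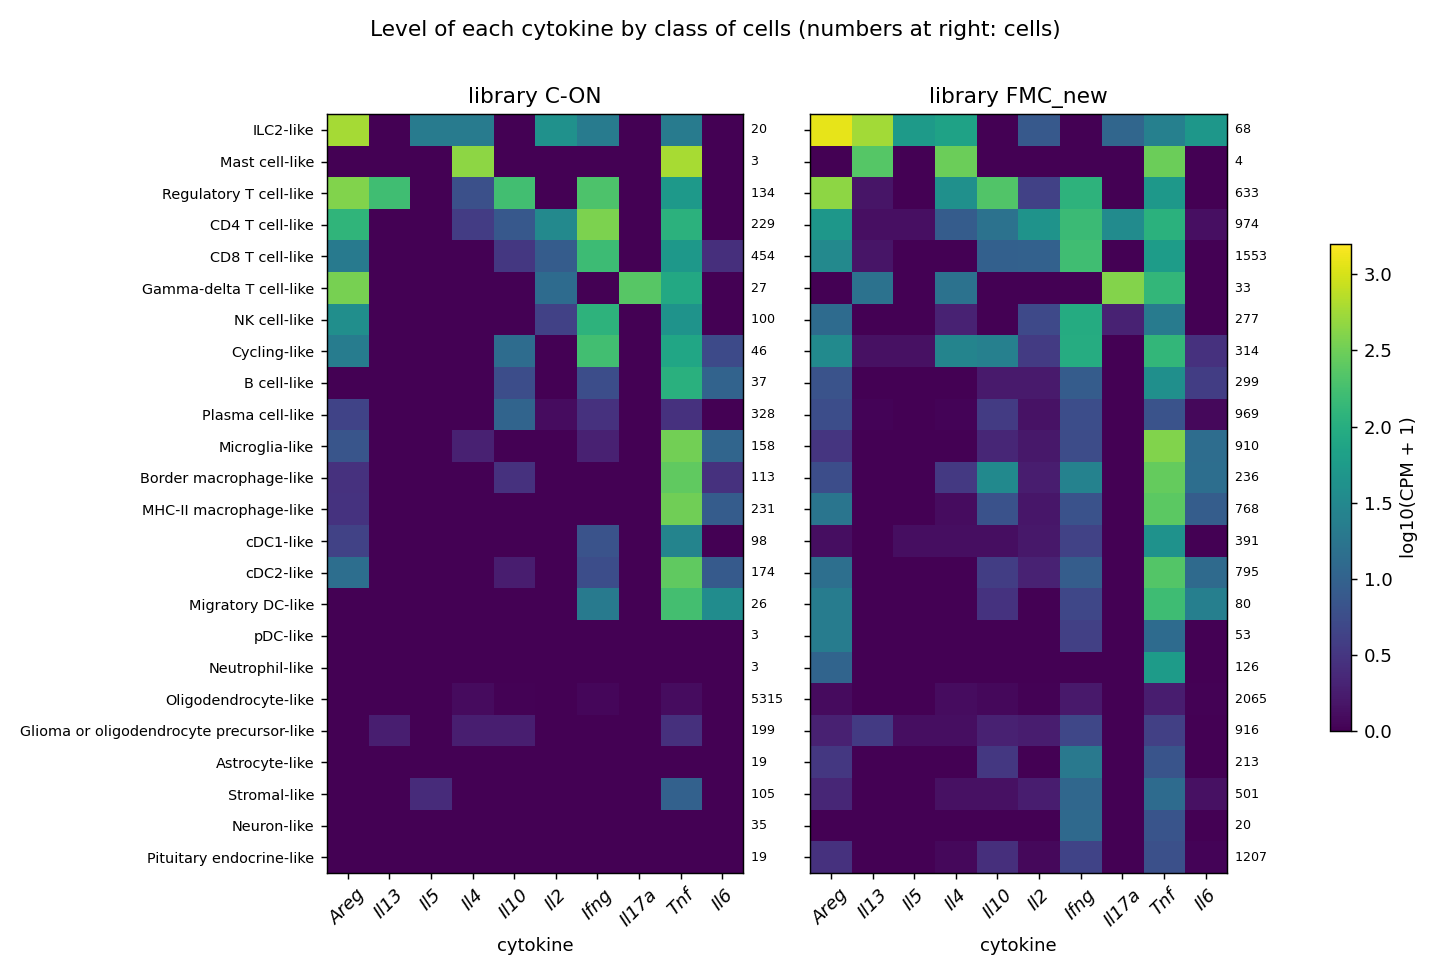
Level of each cytokine, as log10(CPM + 1), in each class of cells, with 1 panel per library and the number of cells at the right of each row. Areg is bright in ILC2-like and regulatory T cell-like rows of both panels, Tnf runs through the myeloid rows, and Il13 is brightest in the ILC2-like row of FMC_new. The Il13 level of the regulatory T cell-like row of C-ON comes from 1 cell and that of the mast cell-like row of FMC_new from 3 UMIs.

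Within the ILC2-like class the type 2 genes were not spread evenly. Once 5 mast cell-like cells of cluster 21.1 and 1 of cluster 21.2 were set apart, the class joins 20 cells of C-ON and 35 of FMC_new in cluster 21.1 and 33 cells in cluster 21.2, all of FMC_new. Il13 was among the leading genes of cluster 21.2. These were ranked after the clustering and from the same counts, so this only restates its height there. Of the 88 cells, 32 had none of Areg, Il13, Il5, Il4 and Il6, 32 had 1 of them, 16 had 2, 5 had 3 and 3 had 4. In cluster 21.2 only 4 of 33 cells had none and 22 had at least 2. In cluster 21.1 of FMC_new 15 of 35 had none and 2 had at least 2, and in C-ON 13 of 20 had none and 0 had more than 1. Cells of cluster 21.2 were also deeper, with a median of 6114 UMIs against 2942 and 2292.5, and the part of depth in these counts was not tested. All 22 cells with Il13 also had Il1rl1, against 75 of all 88 cells. Areg and Il13 were found together in 11 cells, of 38 with Areg and 22 with Il13. Of 9 cells with Il5, 6 had Il13 and 7 had Areg. The cell with the most Il5 (4 UMIs) also held 46 UMIs of Il13, 5 of Il4 and 3 of Areg.

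**Figure D2:**
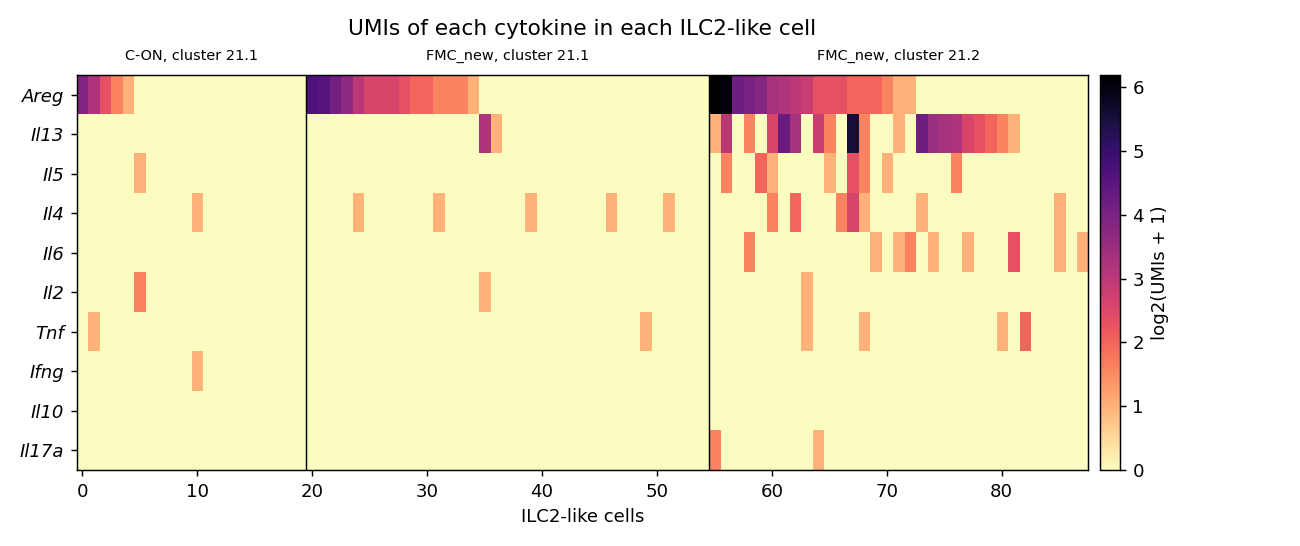
UMIs of each cytokine, as log2(UMIs + 1), in each of the 88 ILC2-like cells, which stand in columns grouped by library and cluster. Cells of cluster 21.2 carry most of the Il13, Il5 and Il6, while Areg is found in both clusters and both libraries.

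The receptors and inducers of these genes were read from lists. Il1rl1 stood at 633 CPM in C-ON and 1561 CPM in FMC_new in ILC2-like cells, and at 30.4 and 50.8 CPM in regulatory T cell-like cells. Il17rb, the interleukin 25 receptor, stood at 40.8 and 460 CPM in ILC2-like cells, so it too was lower in C-ON. Gata3, the factor that sets the type 2 programme, was highest there with 327 and 569 CPM. Il33, the ligand of Il1rl1, was highest in oligodendrocyte-like cells with 254 and 567 CPM. Il25 was at most 3.10 CPM in either library in every class with at least 20 cells in each, and Tslp was highest in border macrophage-like cells with 34.0 and 7.91 CPM. For the receptors of the 4 cytokines, Egfr was highest in stromal-like cells (212 and 198 CPM), Il4ra in dendritic cells of the migratory type (179 and 88.2 CPM), Il13ra1 in cDC2-like cells (117 and 106 CPM), and Il5ra in B cell-like cells (9.35 and 13.8 CPM).

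Il10, an inhibitor of inflammatory signalling (chr1:131019845-131024974, plus strand), was highest in regulatory T cell-like cells of both libraries. The level was 167 CPM (129.5 to 213) in C-ON, from 34 of 134 cells, and 210.4 CPM (190.3 to 232) in FMC_new, from 140 of 633 cells. These intervals overlap. When the class was taken by markers in each cell (531 cells), the level over both libraries was 102 CPM, against 203 with clusters, and the cause was not tested. The next class differed by library. Cycling cells had 12.7 CPM in C-ON and 23.6 in FMC_new. Border macrophage-like cells had 1.89 and 32.4 CPM, the latter from 9 of 236 cells with 18 of 41 UMIs in a single one. Plasma cell-like cells had 9.68 and 2.56 CPM. Microglia-like cells, which are also of the macrophage kind, had 0 and 8 UMIs, or 1.23 CPM in FMC_new. Between regulatory T cell-like and CD4 T cell-like cells, 0.578% of 12288 genes were called higher and 0.203% lower. Il10 was called higher, at 25.1-fold and 14.0-fold, and Il2 was called lower, at 0 against 23 UMIs in C-ON and 6 against 119 in FMC_new. With both classes taken by markers in each cell, neither was called: Il10 stood at 86.9 against 16.1 CPM in C-ON (5.41-fold) and 105.6 against 39.98 CPM in FMC_new (2.64-fold), and Il2 had 0 against 7 UMIs and 7 against 38. Areg was 3.19-fold and 9.24-fold higher and was not called, because CD4 T cell-like cells of C-ON carried more of it. Maf, a factor linked to Il10, stood at 693 and 496 CPM in regulatory T cell-like cells and at 675 and 514 CPM in border macrophage-like cells. Il10ra was highest in microglia-like cells (321 and 354 CPM) and Il10rb in border macrophage-like cells (189 and 170.1 CPM).

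Areg and Il10 were each found in 174 of the 767 regulatory T cell-like cells, and 31 cells had both. In C-ON Il10 was found in 35.7% of the 28 cells with Areg and in 25.4% of all cells, and in FMC_new in 14.4% of the 146 and 22.1% of all, so the order differed between libraries. Foxp3 was found in 59.2% of the cells with Areg and in 41.5% of those without. That order held in C-ON (67.9% of 28 cells against 39.6% of 106) and in FMC_new (57.5% of 146 against 41.9% of 487). For Il10 the order was the other way, with 35.1% against 48.6% over both libraries. It was 44.1% of 34 against 46.0% of 100 in C-ON and 32.9% of 140 against 49.1% of 493 in FMC_new, so it was marked in 1 library. Cells with either cytokine were deeper than cells without, with medians of 2901.5 against 2453 UMIs for Areg and 2805.5 against 2467 for Il10. The part of depth in these shares was not tested. Of the 102 cells with Ifng, 33.3% had Foxp3, against 47.4% of the rest. Il4 was found in 15 cells of this class, of which 1 had Foxp3. The pair with the most Il4 (44 and 14 UMIs) had none, and both carried Cd3e and Cd4. The cycling cell with 71 Il4 UMIs likewise had Cd3e (16 UMIs), Cd4 (3) and Il10 (12) and no Foxp3.

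**Figure D3:**
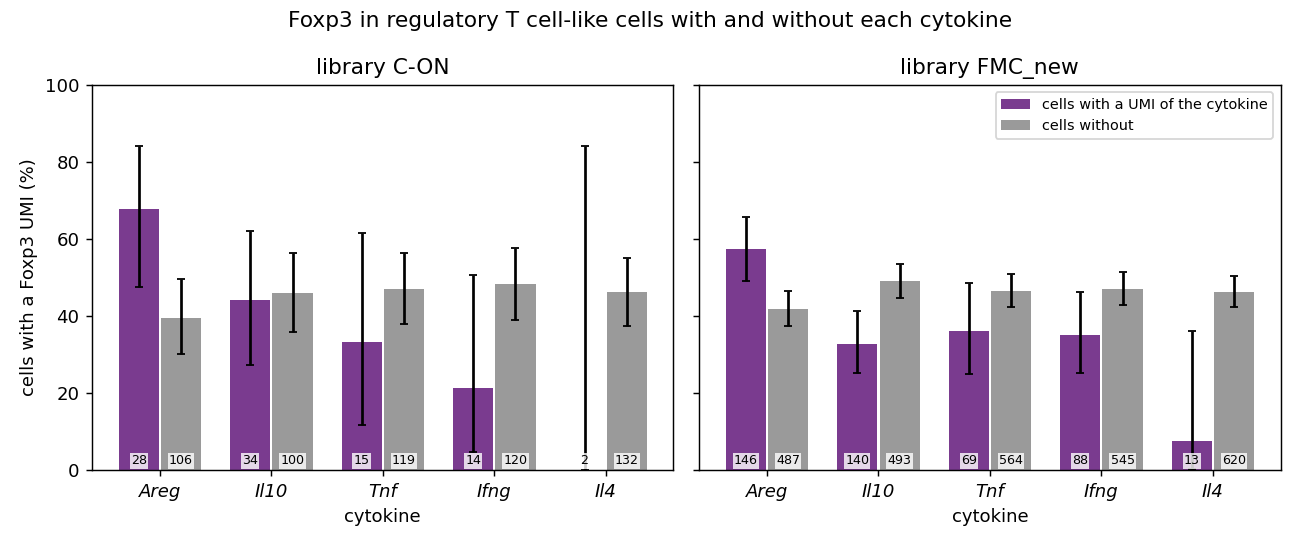
Share of regulatory T cell-like cells with a Foxp3 UMI, split by whether the cell has a UMI of the named cytokine, with 1 panel per library. Bars give the share, lines the exact binomial 95% interval and numbers the cells in each bar. Cells with Areg have the larger share in both panels, and cells with Il4 the smallest in FMC_new.

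Ifng, the main type 1 cytokine (chr10:118441046-118445892, plus strand), was highest in T cell-like classes. In C-ON it stood at 368 CPM (326 to 414) in CD4 T cell-like cells, 200.5 in regulatory T cell-like, 169 in cycling, 157 (139 to 177) in CD8 T cell-like and 118 in NK cell-like cells. In FMC_new it stood at 164 CPM (154 to 175) in CD8 T cell-like, 152 (138 to 167) in CD4 T cell-like, 117 in regulatory T cell-like, 96.0 in cycling and 91.0 in NK cell-like cells. CD4 T cell-like cells therefore led in C-ON well beyond counting error, while in FMC_new they could not be told apart from CD8 T cell-like cells. The share of CD4 T cell-like cells with a UMI was 39.3% in C-ON and 20.1% in FMC_new, and after thinning each cell to 1000 UMIs it was 22.5% and 11.5%. The gap lay in 1 of the 2 clusters of this class: cluster 6 had 447 CPM in C-ON against 147 in FMC_new, and cluster 13 had 180.0 and 158 CPM. CD8 T cell-like cells had a share of 30.8% in C-ON and 27.2% in FMC_new, and 12.0% in both once thinned. In oligodendrocyte-like cells, with 6 of 5315 and 10 of 2065 cells, the shares were 0.113% and 0.484%. None of the 60 gamma-delta T cell-like cells had a UMI. With 3 counts taken as the limit at 0, this allows up to 36.4 CPM in C-ON and 23.0 CPM in FMC_new.

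NK cells are a classical innate source of interferon-gamma. NK cell-like cells had 0.557-fold and 0.603-fold the Ifng of all T cell-like cells. With the same 4-fold call, 1.45% of 14259 genes were higher in NK cell-like cells and 0.680% lower. Of 8 cytokines with enough UMIs none was called higher, and Il2 was called lower, from 1 and 4 NK cell-like UMIs. This call was lost when classes were taken by markers in each cell, at 0 UMIs against 17 and 86. There the floor of 3 counts sets the fold. Il10 and Il13 were at 0 UMIs in NK cell-like cells. Tbx21, a factor that drives Ifng, was highest in NK cell-like cells with 322 and 268 CPM, followed by CD8 T cell-like cells with 133 and 146 CPM. Ifng itself was higher in CD8 T cell-like than in NK cell-like cells of both libraries. The NK cell-like levels rest on 38 and 90 UMIs, and whether the gap exceeds counting error was not tested. Il12rb2, a receptor subunit for interleukin 12, was also highest in NK cell-like cells (214 and 278 CPM), and its ligand gene Il12b was highest in dendritic cells of the migratory type with 3257 and 1966 CPM. Ifngr1 was highest in gamma-delta T cell-like cells (1579 and 1591 CPM), the class without Ifng.

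Il2, the T cell growth factor (chr3:37120523-37125959, minus strand), had 301 UMIs, 80.5% of its positive cells holding 1. CD4 T cell-like cells had 30.6 CPM (19.4 to 46.0) in C-ON and 42.5 (35.2 to 50.9) in FMC_new, from 14 and 73 cells, and CD8 T cell-like cells 7.43 and 8.80 CPM. Outside lymphocytes, microglia-like cells had 0 and 4 Il2 UMIs, the latter 0.616 CPM. Regulatory T cell-like cells, which depend on interleukin 2 made by others, had 0 and 6 UMIs. Their receptor gene Il2ra stood at 563 and 344 CPM, near the 470 and 498 CPM of ILC2-like cells. The ILC2-like Il2 level of 40.8 CPM in C-ON rests on 2 UMIs. Among CD8 T cell-like cells the 2 clusters differed: cluster 0 had 2.3 CPM of Il2 and 49.3 of Areg over both libraries, and cluster 3 had 16.4 of Il2 and 2.3 of Areg. In CD4 T cell-like cells 89 had Ifng and Tnf together, of 286 with Ifng and 219 with Tnf, and 22 had Ifng and Il2, of 87 with Il2. The gene Adad1 overlaps Il2 on the opposite strand and had 2 and 17 UMIs over all barcodes.

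Il17a, which recruits neutrophils (chr1:20730905-20734496, plus strand), was rare, with 176 UMIs in 22 cells. Gamma-delta T cell-like cells had 231 CPM (139 to 360.3) in C-ON, from 19 UMIs in 3 cells, and 405 CPM (304 to 530.3) in FMC_new, from 53 UMIs in 5 cells. Over both libraries the level was 338 CPM, and 222 CPM without the cell with the most. When the class was taken by markers in each cell, only 11 cells were left and the level was 1044 CPM. CD4 T cell-like cells had 0 UMIs in C-ON and 95 in FMC_new, or 33.9 CPM. Those 95 UMIs lay in 6 cells, all of cluster 6, and the 2 with the most held 37 and 30. Over both libraries the level was 26.8 CPM, and 16.3 CPM without the top cell. Between gamma-delta and CD8 T cell-like cells 2.24% of 12652 genes were called higher and 0.482% lower. Il17a was called higher, at least 134.5-fold and 814-fold, as CD8 T cell-like cells had none, and Ifng was called lower, at 0 UMIs against 275 and 989. With classes taken by markers in each cell the Ifng call was lost, at 0 UMIs in 4 and 7 gamma-delta T cell-like cells. CD8 T cell-like cells then had 164 and 804 UMIs, and the floor of 3 counts sets the fold. Of the 8 gamma-delta T cell-like cells with Il17a, 6 had Trdc. Il23r, the receptor of the cytokine that sustains Il17a, stood at 510.1 and 382 CPM in this class. Il23a, a subunit of that ligand, was at most 5.40 CPM in either library in any class with at least 20 cells in each. Il17ra was highest in gamma-delta T cell-like cells (85.0 and 68.8 CPM) and Il17rc in stromal-like cells (48.9 and 46.1 CPM).

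Tnf, a pro-inflammatory cytokine made by many cells (chr17:35199381-35202007, minus strand), was highest in myeloid classes. Microglia-like cells had 333 CPM (298 to 370.3) in C-ON and 396 (381 to 412) in FMC_new, from 56 of 158 and 489 of 910 cells. Border macrophage-like cells had 259 and 274 CPM, macrophages high in MHC class II genes 319 and 246.5, and cDC2-like cells 265 and 218.5. In C-ON the intervals of microglia-like cells and of macrophages high in MHC class II genes (286 to 355) overlapped, and in FMC_new microglia-like cells stood above the rest. Dendritic cells of the migratory type had 174 and 161 CPM, while type 1 conventional dendritic cells, cDC1-like, had 26.4 and 42.2 CPM. Among lymphocytes CD4 T cell-like cells had 112 and 109 CPM, gamma-delta T cell-like cells 85.0 and 130.0, CD8 T cell-like cells 50.3 and 58.1, and NK cell-like cells 43.4 and 20.2. The 7 mast cell-like cells held 4 UMIs in each library, or 596 and 302 CPM. Against ILC2-like cells, 1.76% of 4765 genes were called higher in mast cell-like cells and 0.252% lower, and of 6 cytokines with enough UMIs Tnf and Il4 were called higher, each on 8 UMIs or fewer. Between microglia-like and border macrophage-like cells 1.38% of 13088 genes were called higher and 1.64% lower, and none of 5 cytokines was, Tnf being 1.28-fold and 1.45-fold higher in microglia-like cells. In oligodendrocyte-like cells Tnf was found in 12 of 5315 and 11 of 2065 cells.

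Genes known to rise when tissue is dissociated, such as Fos, Jun and Egr1, were high in the same myeloid classes and in others. The sum of the 12 stress genes listed was 40761 CPM in the 7 mast cell-like cells, 26103 CPM in microglia-like, 23868 in border macrophage-like, 22898 in MHC class II-high macrophages, 19857 in pituitary endocrine-like, 16414 in ILC2-like, 15275 in cDC2-like, 6094 in CD4 T cell-like and 575 in oligodendrocyte-like cells. In microglia-like cells this sum was 25619 CPM in cells with Tnf and 26755 in cells without. In cDC2-like cells it was 18052 against 13010 CPM, in MHC class II-high macrophages 25672 against 20698 CPM, and in CD4 T cell-like cells 8197 against 5423 CPM. In regulatory T cell-like cells with and without Areg it was 8402 and 5706 CPM, and with and without Il10 it was 5858 and 6657 CPM. In ILC2-like cells with and without Areg it was 20081 and 16994 CPM in C-ON and 15599 and 16738 CPM in FMC_new. In ILC2-like cells of FMC_new with and without Il13 it was 13470 and 18346 CPM. For Ifng it was 7534 against 5471 CPM in CD4 T cell-like cells and 4254 against 3344 CPM in CD8 T cell-like cells, with the same order in both libraries. In border macrophage-like cells with and without Tnf it was 22027 and 27078 CPM in C-ON and 25592 and 21676 CPM in FMC_new, so for Areg in ILC2-like cells and for Tnf in border macrophage-like cells the order differed between libraries. The part of dissociation in these levels was not tested.

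Il6, which acts on many cells through Il6st (chr5:30013114-30019981, plus strand), was low throughout, with 317 UMIs in 221 cells. Its highest class was ILC2-like cells, from FMC_new alone: they had 0 UMIs in C-ON and 14 in FMC_new, or 47.7 CPM (26.1 to 80.1) from 9 cells. Dendritic cells of the migratory type had 34.8 CPM in C-ON (7 UMIs) and 23.0 in FMC_new (12 UMIs), microglia-like cells 9.93 and 12.8 CPM, and cDC2-like cells 7.07 and 11.8 CPM. In FMC_new the intervals of the ILC2-like and migratory levels overlapped. Microglia-like and cDC2-like cells held 93 and 79 of the UMIs. Of 64 microglia-like cells with Il6, 36 also had Tnf. Stromal-like cells, where Il6st was highest (159 and 146 CPM), had 1 Il6 UMI, and 0 of 232 astrocyte-like cells had any. Il6ra was highest in microglia-like cells with 206 and 139 CPM.

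**Figure D4:**
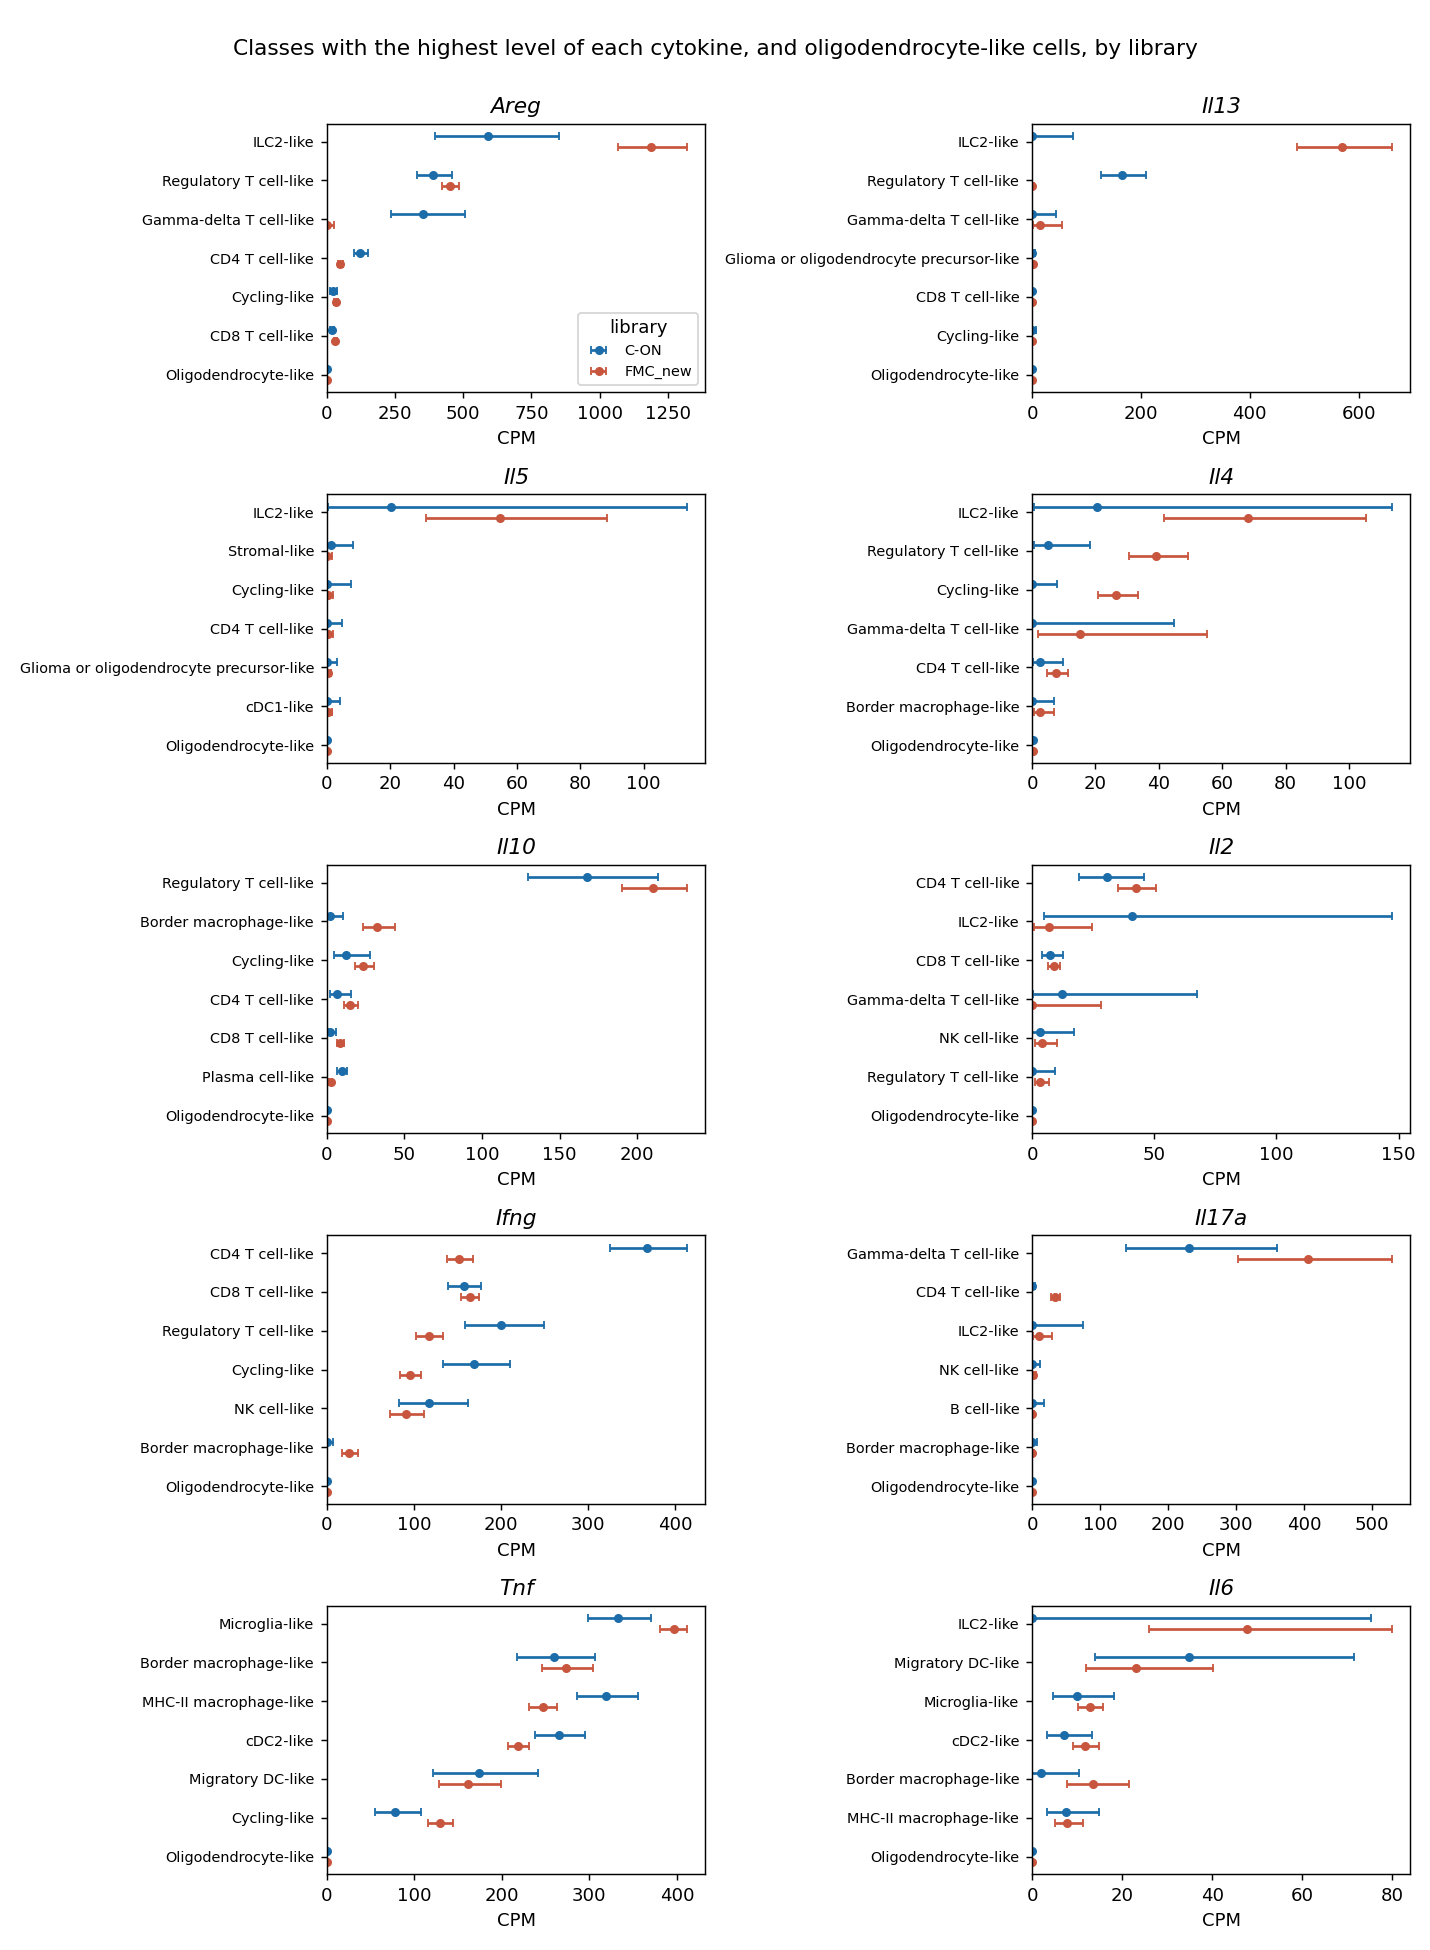
CPM of each cytokine in the classes with its highest levels and in oligodendrocyte-like cells, with 1 panel per cytokine. Points are the 2 libraries and lines exact Poisson 95% intervals. The intervals of both libraries overlap for Il10 in regulatory T cell-like cells and stand apart for Ifng in CD4 T cell-like cells, at 368 and 152 CPM.

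The cytokines also differed in how few cells held their RNA. For Il17a, Il4, Il13 and Il5, the 10 cells with the most UMIs held 90.3%, 61.0%, 76.5% and 76.0% of the UMIs. For Il2, Il6, Areg, Il10, Ifng and Tnf they held 19.9%, 16.4%, 15.6%, 14.2%, 9.13% and 5.40%. Numbers of positive cells differ, since Il5 was found in 16 cells and Tnf in 2984. Among genes with many positive cells, 50% of the Areg UMIs lay in 62 of 559 cells and 50% of the Tnf UMIs in 372 of 2984. The cells with the most UMIs of a single cytokine were a cDC2-like cell with 84 of Tnf, an ILC2-like cell with 72 of Areg, the cycling cell with 71 of Il4, and a cycling cell of FMC_new with 68 of Ifng and 6 of Cd8a.

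**Figure D5:**
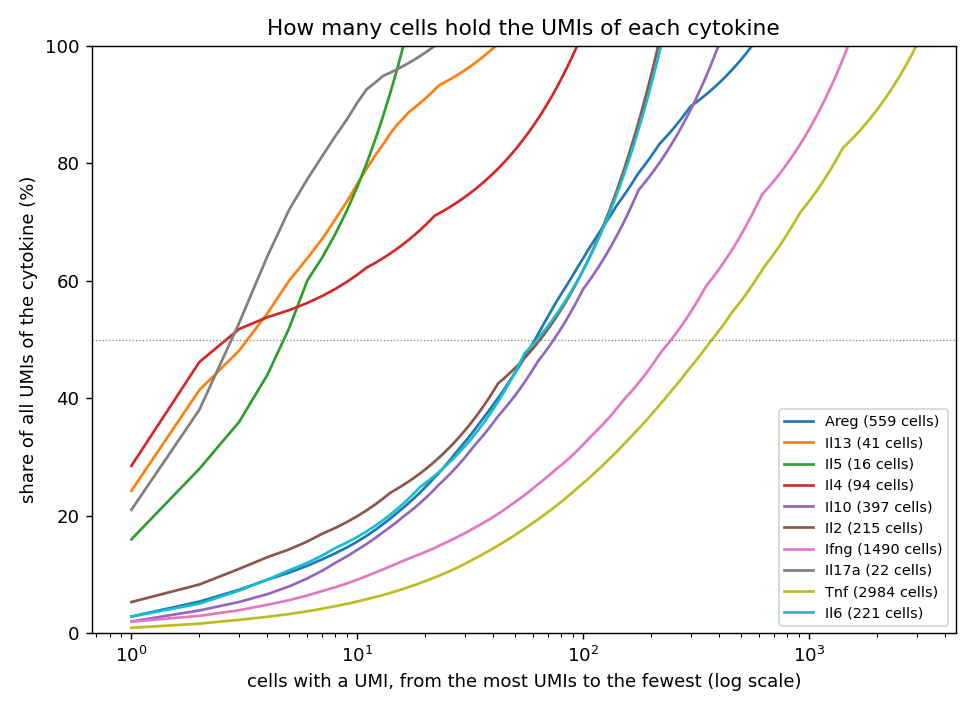
Cumulative share of all UMIs of each cytokine, in percent, against the number of cells with a UMI, ordered from the most UMIs to the fewest on a log axis. Il17a and Il4 pass 50% at 3 cells, Il13 at 4 and Tnf at 372.

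A list of 12 other lymphocyte cytokines was read in the same way. Csf2 and Lif were highest in ILC2-like cells, with 368 and 177 CPM for Csf2. Il17f had 0 and 44.3 CPM in ILC2-like cells and 36.4 and 38.2 CPM in gamma-delta T cell-like cells. Lta was highest in gamma-delta T cell-like cells (97.2 and 161 CPM), Il21 in CD4 T cell-like cells (24.0 and 43.2 CPM), Ltb in B cell-like cells (996 and 1057 CPM), Osm in microglia-like cells (73.5 and 138 CPM) and Tgfb1 in NK cell-like cells (269.8 and 291 CPM). Il22 was highest in neuron-like cells (35 and 20 cells) with 21.8 and 17.3 CPM, above gamma-delta T cell-like cells with 12.1 and 0 CPM. Il9 was also highest in neuron-like cells, with 0 and 5.78 CPM. Il3 and Il24 had no UMI in any of the 19 classes.

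Genes whose level followed that of a cytokine over 19 classes in 2 libraries (38 points, Pearson r of log2(CPM + 1)) were named by a fixed rule, the 3 closest for each of the 9 cytokines with at least 100 UMIs. These points share libraries and classes, and r is a description. Areg was closest to Gata3 (0.84), Gm50218 (0.82) and Ccr8 (0.82). Il4 was closest to Ccr4 (0.75), Ccr8 (0.72) and Neb (0.71), and Il13 to Gm47644 (0.70), 5730420D15Rik (0.70) and Gm48893 (0.68). Ifng was closest to Tigit (0.86), Lck (0.85) and Sh2d1a (0.84). Il2 was closest to Gm50218 (0.79), Stc2 (0.77) and Gm34086 (0.76), and Il10 to Gm8281 (0.84), Trav4-3 (0.82) and Trav6d-7 (0.81). Il17a was closest to Tcrg-V6 (0.90), Cd163l1 (0.87) and Ret (0.83), where Cd163l1 is also a marker of the class. Tnf was closest to Bcl2a1b (0.91), Gsdmd (0.91) and Lrch4 (0.90), and Il6 to E230013L22Rik (0.85), Ptgs2 (0.79) and Hlx (0.78).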

How the data were processed

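Cells of 2 libraries labelled optic nerve, of 1 group, were analysed. The authors aligned reads to mm10 and made the files with Cell Ranger 7.2.0, per the file headers (the study's methods text names an earlier version), and deposited raw UMI counts of barcodes called as cells; whether intronic reads were counted is not given in the sources used here. Library totals were 85101211 and 129113325 UMIs. Cells with 500 to 5000 genes, 500 to 20000 UMIs and under 5% mitochondrial UMIs were kept, normalised and integrated with Seurat 5.3.0 (R 4.3.3; 2000 variable features, 30 components, resolution 0.8). The 23 of 38 clusters with Ptprc in at least 40% of cells (13913 cells) were clustered again at resolution 1, and the cluster of ILC2-like and gamma-delta T cell-like cells once more with 10 components. A class needed at least 3 of its markers, each in 20% of cells and at 2 times its mean over clusters, and either a marker among the 10 leading genes or 75% of its list. A leukocyte or cycling class, plasma cells aside, also needed Ptprc in at least 40% of cells. Mast cell-like cells were taken singly, with at least 5 of 10 mast cell markers. These naming rules were settled after the clusters were seen. Summing, intervals and folds used Python 3.11.15, numpy 2.4.6, scipy 1.17.1 and pandas 2.3.3. Fold calls were also tried on simulated data, and no result of that trial is used here. Folds were called for genes with at least 10 UMIs in the 2 classes together, and a count of 0 was set to a floor of 3 counts. Thinned shares used 1000 UMIs per cell, leaving out 612 shallower cells. Scrublet (scanpy 1.11.5) marked 1 and 0 cells at an expected rate of 0.06, so it did not work here, and no doublets were removed. The 10 cytokines and all lists were chosen with earlier results of these data known. All 10 are named, other genes where they are the highest of a list, are paired with a cytokine as receptor, regulator or inducer, or are among the 3 most alike in level. Alternatives were single libraries, a marker gate per cell, wider cell filters, a finer second round, thinning, a minimum of 2 UMIs and removal of high Scrublet scores.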

Additional observations from a re-analysis of the deposited data

Results flagged for a closer look

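Cluster 21.3, which stayed unnamed, was left out of every class and held higher levels of 3 cytokines than any named class with at least 20 cells in each library. It has 16 cells, all of FMC_new, and Areg and Cd40lg were among its leading genes. These were ranked after the clustering and from the same counts, so this only restates the Areg level. Areg stood at 1340 CPM (1050.0 to 1684), from 73 UMIs in 6 cells, against 1189 CPM (1068 to 1321) in ILC2-like cells of FMC_new. Il4 stood at 91.7 CPM (29.8 to 214), from 5 UMIs in 4 cells, against 68.2 CPM (41.6 to 105) in ILC2-like cells of FMC_new. For both genes these exact Poisson 95% intervals overlap. Il2 stood at 165 CPM (75.5 to 313.5), from 9 UMIs in 3 cells, against 42.5 CPM (35.2 to 50.9) in CD4 T cell-like cells of FMC_new. No cell of C-ON fell in this cluster, so its levels have no replicate check.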

How the results depend on the processing

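No paired analysis was possible because no result comes from a test: both libraries belong to 1 group, and cells are not replicates. Folds between classes are given within each library. The 10 cytokines were followed in the class where each was highest over both libraries. With either library left out, levels ranged from 152 to 368 CPM for Ifng in CD4 T cell-like cells, 333 to 396 for Tnf in microglia-like, 30.6 to 42.5 for Il2 in CD4 T cell-like, 167 to 210.4 for Il10 in regulatory T cell-like and 231 to 405 for Il17a in gamma-delta T cell-like cells. In ILC2-like cells they ranged from 20.4 to 68.2 CPM for Il4, 20.4 to 54.5 for Il5, 0 to 569 for Il13, 592 to 1189 for Areg and 0 to 47.7 for Il6. Shares of positive cells ranged, in the same order, from 20.1 to 39.3% for Ifng, 35.4 to 53.7% for Tnf, 6.11 to 7.49% for Il2, 22.1 to 25.4% for Il10, 11.1 to 15.2% for Il17a, 5.0 to 17.6% for Il4, 5.0 to 11.8% for Il5, 0 to 32.4% for Il13, 25 to 48.5% for Areg and 0 to 13.2% for Il6. Without C-ON these are the values of FMC_new alone, and the reverse. A gate on markers in each cell gave 102 CPM of Il10 and 1044 CPM of Il17a, and 99.0 and 1044 CPM with no upper limits on genes or UMIs. Thinning gave 23.3 CPM of Il5 and shares of 21.5% for Tnf, 3.31% for Il2, 5.81% for Il4, 2.33% for Il5, 14.0% for Il10 and 10.2% for Il17a. The Ifng share was 13.7% once thinned. The shares fall because fewer UMIs per cell are read, and the cause of the shift in the Il5 level was not tested. With at least 2 UMIs shares were 33.9% for Tnf, 1.66% for Il2, 4.55% for Il4 and 13.04% for Il10. They were 11.1% for Ifng and 5.68% for Il5. With the gate 4 of the 9 fold calls checked held (Areg, Il4 and Il5 in ILC2-like and Il17a in gamma-delta T cell-like cells). In C-ON the held Il4 and Il5 calls rest on 1 UMI each in 5 ILC2-like cells. That of Il17a rests on 4 cells in C-ON and 7 in FMC_new. Those lost were Il10 and Il2 in regulatory T cell-like cells, Ifng in ILC2-like cells, Il2 in NK cell-like cells (0 UMIs against 17 and 86 in T cell-like cells) and Ifng in gamma-delta T cell-like cells (0 UMIs in 4 and 7 cells). For Il2 in NK cell-like and Ifng in gamma-delta T cell-like cells the floor of 3 counts sets the fold in both libraries. It also does so for Il2 in regulatory T cell-like cells of C-ON and Ifng in ILC2-like cells of FMC_new. The cause of the shifts with the marker gate was not tested. These levels, in 5 classes, moved by less than the spread of the 2 libraries with a finer second round and, chosen after seeing the data, without the cell with the most UMIs. Leaving out cells marked by Scrublet took no cell from these classes, and leaving out the highest 6% of its scores, also chosen after seeing the data, took none from ILC2-like or gamma-delta T cell-like cells, so neither bears on doublets there. In a single library the highest class changed for Ifng (CD8 T cell-like in FMC_new, 164 CPM), Il2 (ILC2-like in C-ON, from 2 UMIs), Il13 (regulatory T cell-like in C-ON, from 1 cell) and Il6 (migratory dendritic cells in C-ON, 34.8 CPM). The Il13 level of regulatory T cell-like cells, 28.9 CPM, fell to 0.441 CPM without its 1 top cell. With 20 ILC2-like and 27 gamma-delta T cell-like cells in C-ON, a cytokine found in few cells can be missed there.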
